A study of Danio rerio with 16 samples.

Results

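The Egr and other immediate early genes described here are 9 genes picked by name from the count table, which lists 31351 genes: egr1, egr2a, egr2b, egr3, ier2a, ier2b, ier5, atf3 and btg2. All 9 were in the table and all 9 were among the 18949 genes with enough reads to test. The choice by name applies no threshold to measured values, but it was made with earlier results of these data known. Shares of the 9 genes set beside those of all genes therefore describe the set and do not test it. The samples were bulk RNA of zebrafish heart ventricles, from nr4a1 mutants and from wild type, at 0, 2, 7 and 21 days post-cryoinjury (dpci). Cryoinjury freezes a patch of the ventricle, and the 0 dpci hearts were uninjured. Each of the 8 conditions had 2 samples, 16 in all. The mutants carried the nc40 allele of nr4a1, an insertion in exon 2 that leads to a premature stop codon, and the fish were adults of between 0.5 and 1 year. The samples of both genotypes at 2, 7 and 21 dpci share the injury, and no other agent is named for any group.

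Immediate early genes are transcribed within minutes of a stimulus from factors already present in the cell, without new protein synthesis. Many encode transcription factors or short-lived regulators, so that their transcripts relay growth factor, cytokine, stretch or stress signals to later target genes. In the heart they respond to injury and mechanical load, and also to handling of tissue. The Egr genes encode zinc-finger transcription factors, the Ier genes encode small nuclear regulators, atf3 encodes a stress-induced bZIP factor, and btg2 encodes an antiproliferative protein that acts with the CCR4-NOT deadenylase. The mutated gene, nr4a1, is itself an immediate early gene and encodes an orphan nuclear receptor.

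Each library held from 14333475 to 27668498 reads assigned to genes. Levels are given as CPM, counts scaled to library size with TMM factors, and error bars and ± values are SD over the 2 samples of a condition unless a standard error is named. A gene was called when its edgeR p-value, adjusted by the Benjamini-Hochberg method over all 18949 genes, was under 0.05 and its absolute log2 fold change was over 0.5. For the median gene the variance between the samples of a condition was 1.59 to 2.06 times that of Poisson noise. Only genes with at least 200 reads summed over the 2 samples entered this measure. The labels do not say whether these samples came from separate fish or pools, so p-values do not reach beyond the spread between these samples. The spread used for a gene was pooled over all 8 conditions and drawn toward a trend over all genes (prior of 62.3 degrees of freedom). It is therefore not that of the gene's own 2 samples per condition alone. The genotype of a sample cannot be read from its nr4a1 level, since the allele still gives transcripts. In mutants nr4a1 averaged 55.8, 83.6, 134.6 and 168 CPM at 0, 2, 7 and 21 dpci, and in wild type it averaged 20.7, 86.1, 215.6 and 139 CPM. No gene of the cardiomyocyte marker list found in the table (7 of 8) was at 0 in any condition. The same held for the marker lists of other cell types, so this does not test the tissue label.

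The genotype comparison at each stage sets these transcripts in mutants against those in wild type, before and after injury. The study states that its DESeq2 analysis took account of batch effects, but the sources used here name no batches or collection times. The model used here therefore has no batch term, and genotype cannot be told apart from collection or handling of the samples. In uninjured ventricles 5 of the 9 genes were higher in mutants (11.9% of all tested genes were) and 0 were lower (11.8% of all genes), against a total of 23.7% of all genes called. The 5 were egr2a, egr3, ier2a, ier2b and atf3, and the median log2 fold change over the 9 genes was 0.67, beside 0.015 over all tested genes. In bulk tissue, fewer cells of a type and less RNA per cell cannot be told apart. At 2 dpci atf3 was called higher (8.35% of all genes were) and egr2b lower (8.5%), 2 of 9 genes where 16.8% of all genes were called. At 7 dpci edgeR called 0 of the 9, where 7.03% of all genes were called higher, 5.94% lower and 13% in all. DESeq2 also called 0 there. By edgeR 6 of the 9 had an adjusted p under 0.05, and the same number an unadjusted p under 0.05, but their fold changes were under the threshold. Of all tested genes 26.8% had an adjusted p under 0.05 at that stage. At 21 dpci ier2a and btg2 were called higher (9.49% of all genes) and atf3 lower (6.83%), 3 of 9 where 16.3% of all genes were called. Of the 9, atf3 was the one called at 3 stages, with opposite directions at 0 and 21 dpci.

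**Figure D1:**
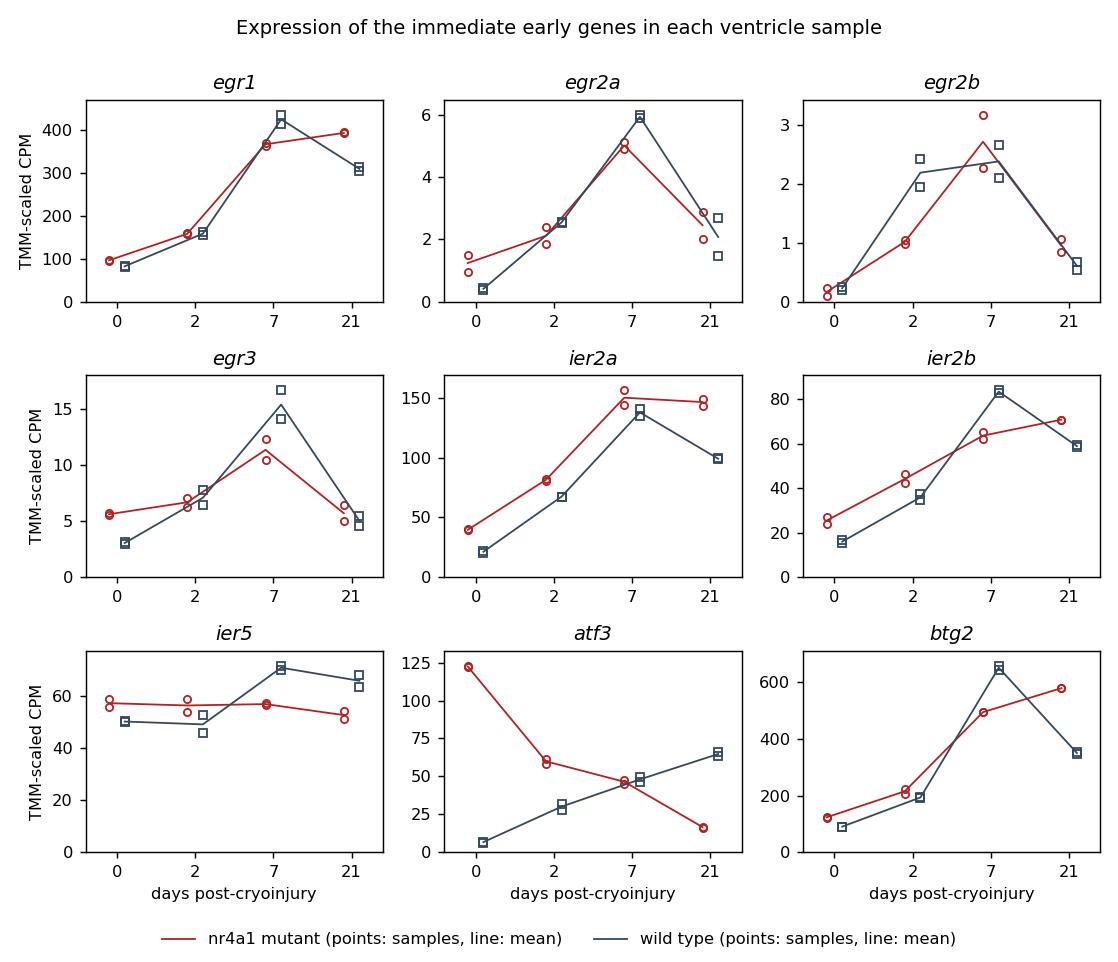
CPM of each of the 9 genes (vertical axes, starting at 0) against days post-cryoinjury (stages evenly spaced), with a point for each sample and a line through the mean of the 2 samples of each condition, nr4a1 mutants in red and wild type in dark grey. In wild type 8 of 9 genes had their highest mean at 7 dpci, though not every such lead was called. The level of atf3 fell in mutants while it rose in wild type.

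Stage comparisons within a genotype set ventricles of different times after the injury against each other. No sham-operated group is among the samples, so the injury cannot be told apart from the surgery, collection or handling at a stage. By 2 dpci, 6 of the 9 genes had risen from the uninjured level in mutants (24.4% of all genes rose) and 1, atf3, had fallen (20.8%), a total of 45.2% of all genes called. In wild type 8 had risen (22.9%) and 0 had fallen (19%), of 41.9% called. From 2 to 7 dpci, 7 genes rose in mutants (11.4%) and 0 fell (10.5%), of 21.8% called, and 8 rose in wild type (12.4%) and 0 fell (11%), of 23.4% called. From 7 to 21 dpci none rose, 4 fell in mutants and 5 fell in wild type. Over all genes, 12.8% rose and 17% fell in mutants at that step, 29.8% in all, and 16.6% rose and 20.5% fell in wild type, 37% in all. Compared with 0 dpci, 6 genes were up at 21 dpci in mutants (13.1%) and atf3 was down (6.92%), of 20% called. In wild type 8 genes, atf3 among them, were up (13.4%) and 0 were down (10%), of 23.4% called. By mean level, 4 genes were highest at 7 dpci in mutants (egr2a, egr2b, egr3 and ier2a), 3 at 21 dpci (egr1, ier2b and btg2) and 2 at 0 dpci (ier5 and atf3). Some of these leads are narrow. In mutants no step of ier5 was called, nor were the changes of egr1, ier2a, ier2b and btg2 from 7 to 21 dpci. In wild type 8 genes were highest at 7 dpci and atf3 at 21 dpci. Here too some leads are narrow. In wild type the samples of egr2b overlapped between 2 and 7 dpci. The changes of egr1, ier2a, ier5 and atf3 from 7 to 21 dpci were not called. The share of all genes with their highest mean at 7 dpci was not computed.

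Whether the genotype difference itself differed between stages was tested with an interaction term, the log2 fold change of mutant over wild type at the later stage minus that at the earlier one. This value is signed, so it also drops where mutants fall below wild type or further below it. From 0 to 2 dpci it dropped for 4 of 9 genes (11.2% of all genes) and grew for 0 (11%), of 22.2% called. From 2 to 7 dpci it dropped for 4 (6.71%) and grew for 1 (6.81%), of 13.5% called. From 7 to 21 dpci it grew for 4 (8.19%) and dropped for 1 (6.67%), of 14.9% called. Between 0 and 21 dpci it dropped for 4 (11.4%) and grew for 0 (12.6%), of 24% called. Comparisons that use the same samples are not independent of each other.

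The gene egr1 encodes the founding Egr factor and is induced by ERK signalling and serum in many cells. In both genotypes it was higher at 2, 7 and 21 dpci than at 0 dpci. In mutants it was at 98.4 and 95.2 CPM at 0 dpci, 159 and 158 CPM at 2 dpci, 363 and 371 CPM at 7 dpci, and 392 and 394 CPM at 21 dpci. In wild type it was at 82.0 and 83.7 CPM, 155 and 163 CPM, 415 and 434 CPM, and 305 and 314 CPM at the same stages. Mutant samples were above all wild-type samples at 0 and 21 dpci and below them at 7 dpci, and the genotypes overlapped at 2 dpci. None of these differences reached the fold threshold. The log2 fold change was 0.22 (standard error 0.0434) at 0 dpci, −0.21 (standard error 0.0364) at 7 dpci and 0.35 (standard error 0.0367, edgeR adjusted p = 1.33e-12) at 21 dpci. What did pass was the change of the difference between 7 and 21 dpci, 0.56 (standard error 0.0517, edgeR adjusted p = 9.99e-15). At 21 dpci mutants held 107% of their 7 dpci mean and wild type held 72.9%.

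The paralogues egr2a and egr2b, whose mammalian counterpart Egr2 is known for hindbrain patterning and myelination, were counted in few reads, from 2 to 140 per sample. How reads that align to both copies were counted is not given in the sources used here. In mutants egr2a was at 1.52 and 0.974 CPM at 0 dpci, 2.39 and 1.85 CPM at 2 dpci, 4.89 and 5.13 CPM at 7 dpci, and 2.03 and 2.88 CPM at 21 dpci. In wild type it was at 0.454 and 0.385 CPM, 2.53 and 2.57 CPM, 5.98 and 5.88 CPM, and 1.48 and 2.68 CPM. Thus egr2a differed before injury, with 32 and 20 reads in mutants against 11 and 9 in wild type, and the genotypes lay close together afterwards. Its log2 fold change at 0 dpci was 1.56 (standard error 0.401, edgeR adjusted p = 9.37e-04), and without mutant sample 1 of 0 dpci it was 1.201 and no longer called (edgeR adjusted p = 0.0564). From 0 to 2 dpci egr2a rose by 0.75 on the log2 scale in mutants (standard error 0.306, edgeR adjusted p = 0.0287) and by 2.58 in wild type (standard error 0.353). The mutant rise was not called with DESeq2 (0.76), without mutant sample 2 of 0 dpci (0.47) or without mutant sample 1 of 2 dpci (0.61). The genotype difference dropped by 1.84 between 0 and 2 dpci (standard error 0.487, edgeR adjusted p = 0.00176). Both genotypes rose again to 7 dpci, by 1.25 in mutants and 1.21 in wild type, and fell by 1.03 in mutants and 1.53 in wild type by 21 dpci. Compared with 0 dpci the gene was still up at 21 dpci, by 0.97 in mutants and 2.27 in wild type. The mutant value was not called without mutant sample 2 of 0 dpci (0.69) or of 21 dpci (0.70).

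Reads of egr2b were scarce before injury, 5 and 2 in mutants and 5 and 6 in wild type, so no genotype fold is given for 0 dpci. At 2 dpci mutants had 17 and 21 reads (0.990 and 1.05 CPM), against 46 and 38 reads in wild type (2.43 and 1.95 CPM). The mutant samples were both below the wild-type samples, at −1.10 on the log2 scale with a standard error of 0.352 (edgeR adjusted p = 0.0101). This call was lost on leaving out mutant sample 1 (−1.05), mutant sample 2 (−1.14) or wild-type sample 1 (−0.93) of 2 dpci. At 7 dpci the genotypes overlapped, at 2.27 and 3.16 CPM in mutants against 2.66 and 2.10 CPM in wild type. At 21 dpci the gene was at 0.842 and 1.06 CPM in mutants against 0.685 and 0.537 CPM in wild type, a difference that was not called (95% interval of the log2 fold change −0.25 to 1.496). From 0 to 2 dpci egr2b rose by 2.56 on the log2 scale in mutants (95% interval 1.46 to 3.66) and by 3.21 in wild type (95% interval 2.35 to 4.07), both against the few reads at 0 dpci. In mutants it rose further, by 1.39, to 7 dpci, while in wild type the value for that step was 0.11 (standard error 0.305) and was not called. At 21 against 0 dpci egr2b was up by 2.46 in mutants and by 1.39 in wild type. The wild-type call was lost with DESeq2 (1.38), without the count filter (1.35) and on leaving out any of the 4 wild-type samples compared (1.19 to 1.54).

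The zinc-finger gene egr3, which acts downstream of growth factor and antigen receptor signals in mammals, was raised in mutants before injury. It stood at 5.55 and 5.70 CPM in mutants against 3.10 and 2.99 CPM in wild type at 0 dpci, with no overlap. The log2 fold change was 0.88 (standard error 0.180, edgeR adjusted p = 3.43e-05). The samples of 2 dpci were at 6.29 and 7.09 CPM in mutants against 7.76 and 6.42 CPM in wild type, and the genotypes overlapped. At 7 dpci mutants had 12.3 and 10.4 CPM, below the 16.7 and 14.2 CPM of wild type. That log2 fold change of −0.42 (standard error 0.134) was under the fold threshold, and it passed without mutant sample 1 (−0.54) or wild-type sample 2 (−0.53) of 7 dpci. At 21 dpci the samples overlapped again, at 5.001 and 6.42 CPM in mutants against 4.59 and 5.49 CPM in wild type. From 0 to 2 dpci the value of egr3 in mutants was 0.26 on the log2 scale (standard error 0.164) and was not called, whereas in wild type it rose by 1.22 (standard error 0.176). The genotype difference dropped by 0.96 between these stages (standard error 0.242, edgeR adjusted p = 9.64e-04). The mean of egr3 at 21 dpci was 1.02 times the 0 dpci mean in mutants, against 1.65 times in wild type.

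Of the Ier genes, ier2a was the one called between genotypes at more than 1 stage. The mammalian Ier2 protein is a nuclear regulator induced by growth factors. In mutants ier2a was at 39.9 and 39.4 CPM at 0 dpci, 80.8 and 82.5 CPM at 2 dpci, 144 and 157 CPM at 7 dpci, and 144 and 149.7 CPM at 21 dpci. In wild type it was at 21.9 and 20.6 CPM, 67.5 and 67.6 CPM, 141 and 135 CPM, and 99.7 and 98.8 CPM. Mutant samples were above wild-type samples at all 4 stages, with the smallest gap at 7 dpci. The log2 fold change was 0.90 at 0 dpci (standard error 0.0647, edgeR adjusted p = 3.48e-20), 0.27 at 2 dpci, 0.12 at 7 dpci and 0.56 at 21 dpci (standard error 0.0471, edgeR adjusted p = 6.27e-17), and the first and last of these were called. The difference dropped by 0.63 from 0 to 2 dpci (standard error 0.0832, edgeR adjusted p = 2.66e-09). Within genotypes, ier2a rose by 1.04 in mutants and 1.67 in wild type to 2 dpci, and by 0.88 in mutants and 1.03 in wild type to 7 dpci, on the log2 scale. Between 7 and 21 dpci the values were −0.034 in mutants and −0.47 in wild type, neither of which was called. The wild-type value was called without wild-type sample 2 of 7 dpci (−0.51).

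For the paralogue ier2b, both mutant samples lay above the wild-type samples at 0, 2 and 21 dpci and below them at 7 dpci. It was at 23.8 and 27.0 CPM in mutants against 16.5 and 15.4 CPM in wild type at 0 dpci, and at 42.1 and 46.2 CPM in mutants against 37.2 and 34.6 CPM in wild type at 2 dpci. At 7 dpci mutants had 62.0 and 65.2 CPM, below the 82.9 and 83.9 CPM of wild type. At 21 dpci mutants were again above wild type, at 70.8 CPM in both mutant samples against 59.4 and 58.4 CPM. Mutant and wild-type samples therefore changed places from 2 to 7 dpci and again from 7 to 21 dpci, without overlap at any stage. Only the difference at 0 dpci was called, at 0.67 on the log2 scale with a standard error of 0.0790 (edgeR adjusted p = 3.61e-11). At 7 dpci the value was −0.39 and at 21 dpci it was 0.27, both under the fold threshold. The change of the difference was −0.70 from 2 to 7 dpci (standard error 0.0885, edgeR adjusted p = 1.45e-09) and 0.66 from 7 to 21 dpci (standard error 0.0827, edgeR adjusted p = 7.38e-10). Calls of ier2b within a genotype lay close to the fold threshold at 2 steps. The rise of 0.52 from 2 to 7 dpci in mutants was not called without the count filter (0.48). It was also lost without mutant sample 1 of 2 dpci (0.42), mutant sample 2 of 7 dpci (0.45) or any wild-type sample of 2 or 7 dpci (0.49). The fall of 0.50 from 7 to 21 dpci in wild type was not called without wild-type sample 2 of 7 dpci or of 21 dpci (−0.49 in both cases).

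The gene ier5, whose human protein promotes the activity of heat shock factor HSF1, moved least of the Ier genes. It was at 56.0 and 58.8 CPM in mutants against 50.4 and 50.3 CPM in wild type at 0 dpci, and at 59.0 and 54.0 CPM in mutants against 45.8 and 52.7 CPM in wild type at 2 dpci. At 7 dpci it was at 56.7 and 57.4 CPM in mutants against 70.21 and 71.9 CPM in wild type. At 21 dpci it was at 51.2 and 54.3 CPM in mutants against 63.6 and 68.4 CPM in wild type. Mutant samples were above wild-type samples at the first 2 stages and below them at the last 2, with no genotype difference past the fold threshold at any stage (log2 fold changes 0.19, 0.20, −0.32 and −0.32). No step was called in mutants. In wild type ier5 rose by 0.53 from 2 to 7 dpci (standard error 0.0600, edgeR adjusted p = 8.79e-12), a call lost without the count filter (0.48). It was also lost without wild-type sample 1 of 2 dpci (0.39), wild-type sample 2 of 7 dpci (0.47) or any mutant sample of 2 or 7 dpci (0.49). The signed genotype difference dropped by 0.51 from 2 to 7 dpci and by 0.51 over 0 to 21 dpci, both near the threshold. The first was not called with DESeq2 or RLE factors (−0.50 in both), with only the samples compared (−0.48), or without sample 1 of mutants of 2 or 7 dpci, wild-type sample 1 of 2 dpci or wild-type sample 2 of 7 dpci (−0.49 to −0.41). Over 0 to 21 dpci the call was lost without the count filter (−0.485) and on leaving out any of 11 of the 16 samples in turn (−0.49 to −0.46), the smallest value without wild-type sample 2 of 21 dpci.

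At 0 and 21 dpci the largest genotype differences of the 9 genes were those of atf3, an ATF/CREB-family repressor and activator induced by many stresses. In uninjured ventricles it was at 123 and 122 CPM in mutants against 7.11 and 6.41 CPM in wild type (2594 and 2503 reads against 172 and 150 reads). This was an 18.1-fold difference, or 4.18 on the log2 scale with a standard error of 0.0761 (edgeR adjusted p = 8.88e-56), and atf3 ranked 44 among all 18949 tested genes by log2 fold change upward. At 2 dpci atf3 was at 61.5 and 58.4 CPM in mutants against 28.1 and 32.1 CPM in wild type. The log2 fold change there was 0.99, with a standard error of 0.0665 (edgeR adjusted p = 2.10e-21). The genotypes overlapped at 7 dpci, at 48.0 and 45.0 CPM in mutants against 49.9 and 46.2 CPM in wild type (95% interval of the log2 fold change −0.17 to 0.086). At 21 dpci mutants were at 16.3 and 16.9 CPM and wild type at 66.3 and 63.3 CPM. There the log2 fold change was −1.96 (standard error 0.0725, edgeR adjusted p = 3.92e-36), a level 3.90 times higher in wild type than in mutants.

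Over the stages atf3 therefore ran in opposite directions. In mutants it fell by 1.03 on the log2 scale from 0 to 2 dpci, was 0.36 lower at 7 dpci than at 2 dpci, which is under the fold threshold, and fell by 1.49 from 7 to 21 dpci. In wild type it rose by 2.15 to 2 dpci and by 0.67 to 7 dpci, and was 0.44 higher at 21 than at 7 dpci, again under the fold threshold. At 21 dpci against 0 dpci the log2 fold change was −2.88 in mutants (standard error 0.0673, edgeR adjusted p = 3.40e-49) and 3.26 in wild type (standard error 0.0824, edgeR adjusted p = 7.42e-47). The signed genotype difference dropped by 3.19 from 0 to 2 dpci and by 1.03 from 2 to 7 dpci, where the genotypes overlapped. It dropped by a further 1.92 from 7 to 21 dpci, where mutants went below wild type. Over 0 to 21 dpci the change of this difference was −6.14 (standard error 0.106, edgeR adjusted p = 9.19e-57). No alternative that kept the fold threshold changed a call of atf3.

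**Figure D2:**
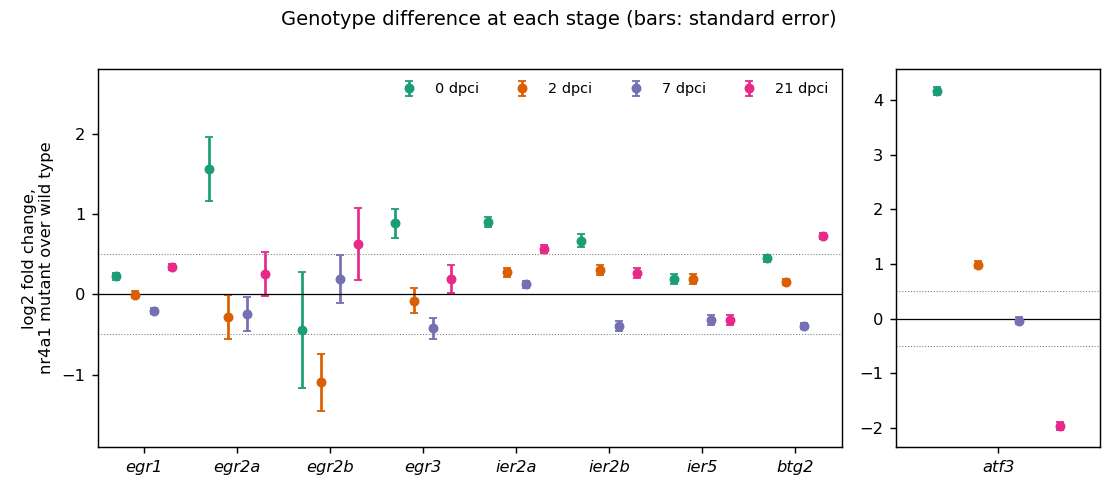
Log2 fold change of nr4a1 mutant over wild type for each gene at 0, 2, 7 and 21 dpci, with bars of 1 standard error and dotted lines at the fold threshold of 0.5 in either direction. The scale of atf3, on the right, differs from that of the other 8 genes, and its value goes from 4.18 at 0 dpci to −1.96 at 21 dpci.

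The antiproliferative gene btg2, a p53 target in mammals, rose steeply in both genotypes and then parted. In mutants it was at 123 and 124 CPM at 0 dpci, 224 and 207 CPM at 2 dpci, 495 and 495 CPM at 7 dpci, and 579 and 580.0 CPM at 21 dpci. In wild type it was at 90.5 and 90.7 CPM, 195 and 193 CPM, 659 and 644 CPM, and 354 and 347 CPM. Mutants were above wild type at 0, 2 and 21 dpci and below it at 7 dpci, with no overlap at any stage. The log2 fold change was 0.45 at 0 dpci (standard error 0.0410) and −0.40 at 7 dpci (standard error 0.0345), neither past the fold threshold. At 21 dpci it was 0.73 and called (standard error 0.0352, edgeR adjusted p = 3.81e-29). At 21 dpci mutants were at 117% of their 7 dpci mean, whereas wild type fell by 0.89 on the log2 scale, to 53.8% of its 7 dpci mean. The change of the genotype difference over that step was 1.12 (standard error 0.0493, edgeR adjusted p = 1.60e-31), and that from 2 to 7 dpci was −0.55 (standard error 0.0512, edgeR adjusted p = 2.27e-14). The value from 2 to 7 dpci was −0.49 and not called without mutant sample 1 of 2 dpci.

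**Figure D3:**
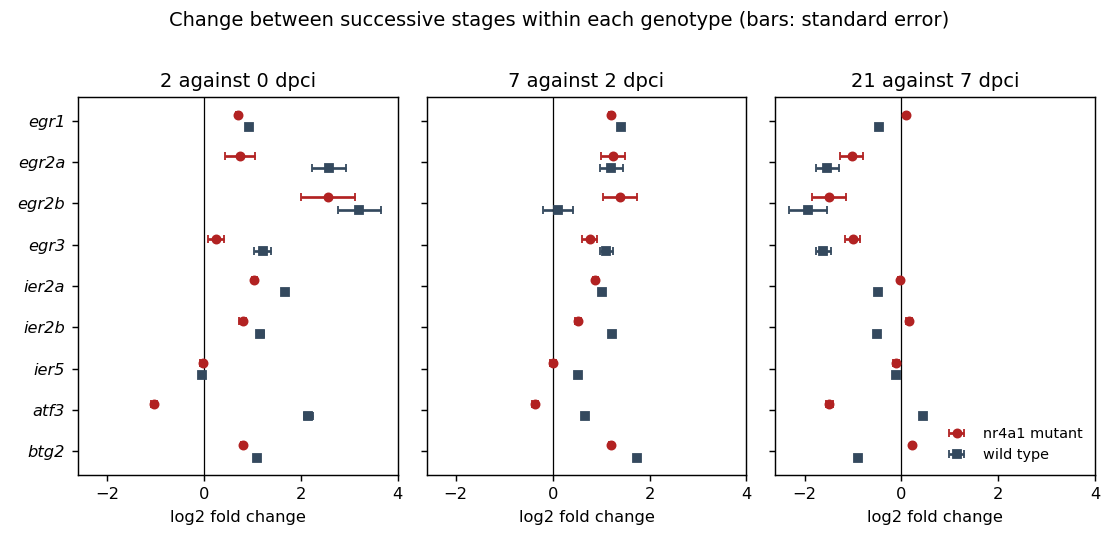
Log2 fold change of each gene between successive stages (later over earlier), nr4a1 mutants as red circles and wild type as dark grey squares, with bars of 1 standard error. From 7 to 21 dpci egr1, ier2a, ier2b and btg2 lie near 0 in mutants (−0.034 to 0.23) and below 0 in wild type (−0.89 to −0.46).

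The conditions can also be ordered by the level of a gene. For btg2 and ier2b the 8 conditions followed each other with no overlap of neighbouring samples, from wild type at 7 dpci, through mutants at 21 dpci and mutants at 7 dpci, down to wild type at 0 dpci. The order of egr1 began with the same 3 conditions, and only its 2 conditions of 2 dpci overlapped. For ier2a the highest means were those of mutants at 7 and 21 dpci, which overlapped, followed by wild type at 7 dpci. The highest mean of atf3 was that of uninjured mutants and the lowest that of uninjured wild type, with an overlap only between the 2 conditions of 7 dpci. Of the others, egr2a, egr2b and ier5 each had 4 overlaps between neighbouring conditions and egr3 had 3, so parts of their orders are not resolved. For egr2b these include its highest means, those of both genotypes at 7 dpci and of wild type at 2 dpci. The lowest means of egr2b, those of 0 dpci, and of ier5, those of wild type at 0 and 2 dpci, also overlapped.

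Over the 16 samples, the 9 genes fell apart into patterns of unequal likeness. Pearson correlations of log2 CPM, which describe samples that share 8 conditions, lay between 0.951 and 0.991 for the 6 pairs among egr1, ier2a, ier2b and btg2. They lay between 0.784 and 0.919 for the 3 pairs among egr2a, egr2b and egr3. Those of atf3 with each other gene lay between 0.063 and 0.539, and those of ier5 between 0.157 and 0.565. Genes with clone-type names (with a colon, or starting with capital letters and a digit) were left out of the search for like genes. Among the 7734 other genes that remained, with a mean of at least 10 CPM, the 3 most like egr1 were sorl1 (0.967), etv4 (0.962) and mfap2 (0.961). For btg2 they were csrnp1b (0.974), fosab (0.972) and mfap2 (0.963). Of these, csrnp1b and the c-Fos gene fosab are immediate early genes themselves. For atf3 they were sgk2b (0.916), hivep2a (0.884) and azin1b (0.873).

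Other immediate early genes (nr4a1 among them), of which 46 of 51 listed could be tested, moved in both directions over the stages. In uninjured mutants 25 of the 46 were raised and 1 was lowered, with a median log2 fold change of 0.59 beside 0.015 over all genes. The split was 20 raised to 1 lowered at 2 dpci (median 0.45), 2 raised to 10 lowered at 7 dpci (median −0.18) and 15 raised to 6 lowered at 21 dpci (median 0.26). Of all tested genes, 11.9% were raised and 11.8% lowered at 0 dpci, and 8.35% and 8.5% at 2 dpci. The shares were 7.03% and 5.94% at 7 dpci, and 9.49% and 6.83% at 21 dpci. Before injury the called genes with the largest changes were those of the orphan receptors nr4a3 and nr4a1, the AP-1 subunit jund and the kinase sik1. Of these, nr4a3 stood at 42.6 ± 0.983 CPM in mutants against 3.27 ± 0.752 CPM in wild type (SD, n = 2 each). At 7 dpci the AP-1 gene fosb was at 7.46 ± 1.00 CPM in mutants against 16.2 ± 1.39 CPM in wild type, and at 21 dpci it was at 14.01 ± 0.489 CPM in mutants against 4.87 ± 0.485 CPM in wild type. At 21 dpci the cytokine-signalling inhibitor socs3a (log2 fold change 1.04) and the AP-1 genes junbb (1.07) and fosl1a (1.33) were also higher in mutants. The signed genotype difference dropped for 26 genes of the list and grew for 1 from 2 to 7 dpci. From 7 to 21 dpci it grew for 23 and dropped for 3. Over all tested genes it dropped for 6.71% and grew for 6.81% at the first of these steps. At the second it grew for 8.19% and dropped for 6.67%.

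Genes that feed into these transcripts were counted in the same way. Of 22 tested genes of ERK signalling, SRF and its cofactors, which act on the promoters of many immediate early genes, 3 were raised and 3 lowered in uninjured mutants, 3 were raised and 1 was lowered at 2 dpci, 0 were called at 7 dpci and 2 were lowered at 21 dpci. Over all tested genes 23.7%, 16.8%, 13% and 16.3% were called at these stages, so the counts of this list at 0 and 2 dpci are near the background. Among them srfb, a gene for serum response factor, was at 45.3 ± 1.47 CPM in mutants against 24.9 ± 0.0455 CPM in wild type at 0 dpci, and srfa was lower in mutants at 21 dpci (log2 fold change −0.74). Of egr4 and the NAB corepressors of Egr factors, 3 of 4 genes could be tested, and 1 was lower in mutants at 0 dpci and none was called at the other stages.

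Because atf3 is a target of the integrated stress response, the pathway in which phosphorylation of eIF2α favours translation of Atf4, 22 genes of that response were counted. In uninjured mutants 6 were raised and 2 lowered. At 2 dpci 10 were raised and none lowered, at 7 dpci 2 were raised and 1 lowered, and at 21 dpci 5 were raised and none lowered. Of all tested genes, 11.9% were raised and 11.8% lowered at 0 dpci, 8.35% and 8.5% at 2 dpci, 7.03% and 5.94% at 7 dpci, and 9.49% and 6.83% at 21 dpci, so the count at 7 dpci is near the background. At 21 dpci, where atf3 was lower in mutants, the eIF2α phosphatase subunit ppp1r15a was at 85.6 ± 1.57 CPM in mutants against 51.7 ± 4.07 CPM in wild type. At 2 dpci asparagine synthetase, asns, was at 54.6 ± 0.961 CPM in mutants against 25.8 ± 0.941 CPM in wild type. Heat shock genes, which encode chaperones and their factors, were counted as well. Of 19 tested, 9 were raised and 0 lowered in uninjured mutants, 10 were raised and 0 lowered at 2 dpci, 9 were raised and 0 lowered at 7 dpci, and 0 were raised and 10 lowered at 21 dpci. The inducible chaperone hsp70l was at 52.5 ± 2.15 CPM in mutants against 11.0 ± 0.444 CPM in wild type at 0 dpci, and hsp90aa1.1 was at 194.5 ± 1.48 CPM in mutants against 1095 ± 8.71 CPM in wild type at 21 dpci.

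**Figure D4:**
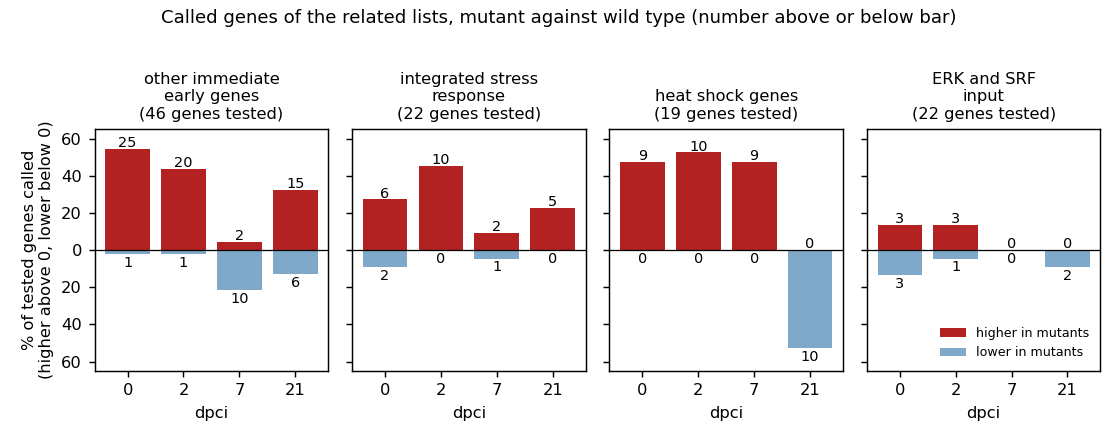
Share of the tested genes of 4 lists that were called higher (above 0, red) or lower (below 0, blue) in nr4a1 mutants than in wild type at each stage, with the number of genes at each bar. Of the other immediate early genes 25 of 46 were higher at 0 dpci and 10 were lower at 7 dpci, and of 19 heat shock genes 10 were lower at 21 dpci.

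Some markers of other cell types were also called between genotypes at every stage. So were 23.7% of all tested genes at 0 dpci, 16.8% at 2 dpci, 13% at 7 dpci and 16.3% at 21 dpci. A list of 6 to 8 markers with 1 called is therefore near or below this background. At 0 dpci, where 5 of the 9 genes were higher in mutants, 7 of 8 neutrophil markers were higher and 1 lower, with a summed level of 63.4 to 68.2 CPM in mutants against 25.1 to 26.6 CPM in wild type. At the same stage 6 of 8 erythrocyte markers and 4 of 8 epicardial and fibroblast markers were lower in mutants, and 3 of 8 macrophage markers were higher. At 2 dpci 0 of 8 neutrophil markers were higher in mutants and 1 was lower. Their summed level was 127 to 129 CPM in mutants against 160 to 167 CPM in wild type. There 3 of 8 macrophage markers and 1 of 6 tested lymphocyte markers were higher. Of the epicardial and fibroblast markers 1 was higher and 1 lower, and 0 erythrocyte markers were called. At 7 dpci 0 of the 9 genes were called, but 6 of them had an edgeR adjusted p under 0.05 with fold changes under the threshold. There 6 of 8 neutrophil markers and 3 of 8 macrophage markers were higher in mutants, as were 4 of 6 tested lymphocyte markers. At 21 dpci, where ier2a and btg2 were higher, 6 of 8 macrophage markers were higher, with a summed level of 201 to 205 CPM in mutants and 131 to 135 CPM in wild type, and 4 of 8 neutrophil markers were higher and 1 lower. Also at 21 dpci, 2 of 8 epicardial and fibroblast markers and 1 of 6 tested lymphocyte markers were higher, and none of either was lower. Smooth muscle and bulbus markers were lower in mutants for 3 of 8 at 0 dpci, 1 at 2 dpci and 2 each at 7 and 21 dpci. Of 8 endothelial and endocardial markers 1 was lower in mutants at 0 dpci and 1 at 7 dpci, and none was called at 2 and 21 dpci. All 8 macrophage markers rose from 0 to 2 dpci and all 8 fell from 7 to 21 dpci in both genotypes. Over all genes, 24.4% rose in mutants and 22.9% in wild type at the first step. At the last step 17% fell in mutants and 20.5% in wild type. None of the markers was at 0 in a condition, and of 7 cardiomyocyte markers 0 were called at 0 and 21 dpci and 1 was lower in mutants at 2 dpci and at 7 dpci. The part of cell composition in the results was not tested.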

How the data were processed

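RNA of heart ventricles was sequenced by Novogene on an Illumina platform. The authors checked reads with FastQC, aligned them with STAR, counted them per gene with featureCounts and deposited these counts by gene symbol and unnormalized. The submitters' processing notes list GRCz11 and danRer11. Tool versions, the strand setting, batches and the number of ventricles per sample are not given in the sources used here.

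Tests were run with edgeR 4.0.16 in R 4.3.3. Genes needed 10 or more counts in 2 or more samples, which left 18949 of 31351. A quasi-likelihood model (glmQLFit, glmQLFTest, TMM scaling) had 1 coefficient for each condition and used all 16 samples, which share 1 estimate of the spread. Called genes had a p under 0.05 after Benjamini-Hochberg adjustment over all tested genes and a log2 fold change beyond 0.5 in either direction. Intervals are the estimate ± 1.96 standard errors. The steps were tested on simulated data. Alternatives used DESeq2 1.42.0, RLE factors, other count filters, the samples compared only, a replicate block, no fold threshold and each sample left out in turn.

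Named are the 9 genes, nr4a1, up to 4 called genes per list with the largest change and at least 10 CPM in 1 group, and the 3 genes most like egr1, atf3 and btg2. The genes and lists were chosen with earlier results of these data known. Samples were not treated as paired by number (deviations of same-numbered samples correlated at −0.0307 to 0.0321 over 28 pairs of conditions). These correlations give every tested gene equal weight, so noise of genes with few reads can hide a weak shared effect.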

Additional observations from a re-analysis of the deposited data

Results flagged for a closer look

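Each of the 9 genes was called in at least 1 comparison of the genotype difference between stages. These comparisons share samples, and the share of all tested genes called in at least 1 of them was not computed. Singly they called 22.2% of all tested genes from 0 to 2 dpci and 13.5% from 2 to 7 dpci. They called 14.9% from 7 to 21 dpci and 24% over 0 to 21 dpci. Every call of egr2b and ier5 was lost under some alternatives. Values are the log2 fold change of mutant over wild type at the later stage minus that at the earlier stage. From 0 to 2 dpci the values were −1.84 for egr2a, −0.96 for egr3, −0.63 for ier2a and −3.19 for atf3. From 2 to 7 dpci they were 1.29 for egr2b (standard error 0.464, edgeR adjusted p = 0.033), −0.70 for ier2b, −0.51 for ier5 (standard error 0.0862), −1.03 for atf3 and −0.55 for btg2. From 7 to 21 dpci they were 0.56 for egr1, 0.61 for egr3 (standard error 0.220, edgeR adjusted p = 0.032), 0.66 for ier2b, −1.92 for atf3 and 1.12 for btg2. Over 0 to 21 dpci they were −1.30 for egr2a (standard error 0.492, edgeR adjusted p = 0.0309), −0.70 for egr3 (standard error 0.252, edgeR adjusted p = 0.0235), −0.51 for ier5 (standard error 0.0848) and −6.14 for atf3. DESeq2 did not call egr2b or ier5 from 2 to 7 dpci, egr3 from 7 to 21 dpci, or egr2a and egr3 over 0 to 21 dpci. The value of egr2b was not called without either mutant sample of 2 dpci, mutant sample 2 of 7 dpci, wild-type sample 1 of 2 dpci or wild-type sample 2 of 7 dpci (1.05 to 1.34). For egr3 from 7 to 21 dpci the same held for sample 2 of mutants and sample 1 of wild type at either stage (0.42 to 0.49), and for egr2a over 0 to 21 dpci for sample 1 of mutants at either stage, both wild-type samples of 0 dpci and wild-type sample 2 of 21 dpci (−1.42 to −0.83). For egr3 over 0 to 21 dpci it held for mutant sample 2 of 0 dpci, mutant sample 1 of 21 dpci and sample 2 of wild type at either stage (−0.68 to −0.53). No sample could be set apart from its group, since each group holds 2 samples.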

How the results depend on the processing

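Over 144 log2 fold changes (9 genes in 16 comparisons), no called value changed direction under any of 22 alternatives, while 52 of 3166 refitted values, none of them called in the full data, changed sign. With a replicate block, although nothing says that a sample number marks a shared animal or day, no call of the 144 changed, and the number called at 0 dpci was 5 with the block. DESeq2 lost 7 calls, so that it called 3 genes for the change from 2 to 7 dpci and 2 for the change from 0 to 21 dpci. Without the fold threshold the genotype comparison called 8 of the 9 genes before injury, where 43.2% of all tested genes were called. After injury it called 6 at each stage, beside 35.6% (2 dpci), 26.8% (7 dpci) and 32.9% (21 dpci) of all tested genes. Under the same rule, 7 were called in mutants (48.9% of all tested genes) and 8 in wild type (55.1%) from 7 to 21 dpci. The change of the genotype difference from 0 to 2 dpci was called for 7 (34% of all tested genes). Over 0 to 21 dpci it was also called for 7 (35.7%). On leaving out each sample in turn, the number called lay between 1 and 2 in the 2 dpci comparison, between 0 and 1 in the 7 dpci comparison, and was 2 to 5 for the change from 2 to 7 dpci and 1 to 4 for the change from 0 to 21 dpci. That last change gave 1 call without sample 1 of mutants or sample 2 of wild type at 21 dpci, and 2 without sample 2 of mutants or of wild type at 0 dpci. The change from 2 to 7 dpci gave 2 calls without mutant sample 1 of 2 dpci, and 3 without wild-type sample 1 of 2 dpci or wild-type sample 2 of 7 dpci. The causes were not tested. With a sample left out, the lone sample of its condition is assumed to vary like the others. Over all tested genes the number called was 0.756 to 1.03 times that of the full data in alternatives that kept the fold threshold. Genes with few reads, egr2a and egr2b, set the limit of what these libraries resolve.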

Other observations

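Of 23 tested genes of the Btg and Tob family, its CCR4-NOT partners and p53 targets, 3 were raised and 6 lowered in uninjured mutants. At 2 dpci 2 were raised and 1 lowered, at 7 dpci 2 were raised and 0 lowered, and at 21 dpci 2 were raised and 1 lowered. Of all tested genes 23.7%, 16.8%, 13% and 16.3% were called at these 4 stages, so the counts after injury are near or below the background. The antiproliferative gene tob1a, a relative of btg2, was at 182 ± 1.66 CPM in mutants against 124 ± 3.64 CPM in wild type at 0 dpci (SD, n = 2 each). At 21 dpci it was at 171 ± 4.29 CPM in mutants against 253.9 ± 0.191 CPM in wild type, the reverse of btg2 at that stage. The p53 target sesn1 was at 105 ± 1.49 CPM in mutants against 60.5 ± 0.0915 CPM in wild type at 7 dpci.

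Within genotypes, the other immediate early genes rose in larger number than they fell to 7 dpci. From 2 to 7 dpci 17 of 46 rose and 1 fell in mutants, and 34 rose and 1 fell in wild type. Over all genes 11.4% rose and 10.5% fell in mutants at that step, and 12.4% rose and 11% fell in wild type. From 7 to 21 dpci 3 rose and 20 fell in mutants, and 2 rose and 29 fell in wild type. Over all genes 12.8% rose and 17% fell in mutants there, and 16.6% rose and 20.5% fell in wild type. The c-Fos gene fosab was higher at 21 than at 0 dpci by 2.36 on the log2 scale in mutants and by 2.87 in wild type.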
